A study of Mus musculus with 9 samples.

Results

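The cytosolic ribosomal protein genes encode the protein part of the cytoplasmic ribosome. They were taken as every row of the expression tables whose symbol is Rpl or Rps followed by a number, together with Rpsa and the stalk genes Rplp0, Rplp1 and Rplp2, leaving out the S6 kinases (Rps6k) and rows named as pseudogenes (-ps). This rule found 92 of the 46517 rows, of which 46 belong to the large subunit and 31 to the small subunit. The other 15 are paralogs or rows that match by symbol alone, among them Rpl22l1, Rps27l, Rpl36al, Rpl39l, Rpl3l, Rpl10l, Rps4l and Rpl7l1, and Rps19bp1, which encodes a binding partner of Rps19 and not a ribosomal protein. In the GENCODE M21 annotation of GRCm38, which matched all 92 rows by Ensembl identifier, 6 of these 15 are processed pseudogenes (Rps3a2, Rps3a3, Rps4l, Rpl37rt, Rps12l1 and Rps12l2). The genes are spread over 19 chromosomes.

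The libraries came from murine duodenal organoids, which are crypt-derived cultures of intestinal epithelium grown in Matrigel with L-WRN conditioned medium, a source of Wnt3a, R-spondin and noggin, together with the ROCK inhibitor Y27632 and the TGF-β receptor inhibitor SB431542. Wild type C57BL/6J organoids were dissociated and transduced at 50 particles per cell with Ad-GFP, which expresses eGFP from a CMV promoter, as control, or with Ad-hHIF2 or Ad-hHIF1, which carry human hypoxia-inducible factors whose proline-to-alanine substitutions keep VHL from degrading them. RNA was taken about 72 hours later from 3 cultures per group, numbered 1, 3 and 4, and every group had therefore been exposed to adenovirus. The paper states that its murine duodenal organoids were cultured at an oxygen level below that of air, a condition shared by all groups. No untransduced group was analysed here, and the ages of the mice are not given in the sources used here. The paper describes the Ad-hHIF2 and Ad-GFP samples as 3 biological replicates per group. The labels do not say whether the cultures came from separate mice, so the p-values measure the spread between these samples only.

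Library totals ran from 21722618 to 51119041 expected counts, which are read counts that RSEM may split between similar transcripts. The transgenes are human and the files list mouse genes, so the targeted genes were read through their mouse counterparts, and how far human reads were assigned to these was not tested. Epas1, which encodes mouse HIF2α, was at 604.0 to 758.0 CPM (counts relative to library size after TMM scaling) in the Ad-hHIF2 libraries and at 1.47 to 3.07 in the others. Hif1a was at 299.0 to 319.0 CPM in the Ad-hHIF1 libraries and at 198.0 to 251.0 in the others. Epithelial keratins were abundant, with Krt8 at 1070.0 and Krt18 at 1160.0 CPM on average in Ad-GFP, and Cdh1 was at 218.0. Other markers of intestinal epithelium were lower there, with Krt20 at 37.0, Cdx2 at 7.21, Vil1 at 4.36, Epcam at 2.94 and Cdx1 listed at 0. Defining markers of intestinal stem cells were at or near 0, with Lgr5 at 0.201 and Olfm4 listed at 0 in Ad-GFP. Ptprc, the defining immune marker, was at 0.769 or less and Cd68 at 8.92 to 13.6 CPM on average in the groups. Summed fibroblast markers lay between 9.53 and 19.1 CPM in the 9 libraries, with overlapping groups, and summed immune markers between 8.26 and 15.2 CPM, where every Ad-hHIF2 library (11.2 to 14.9) lay above every Ad-hHIF1 library (8.26 to 10.2) and Ad-GFP overlapped both. Epithelial markers moved with Ad-hHIF2. The summed enterocyte markers were at 2.79 to 3.27 CPM in Ad-hHIF2, mostly Apoa4, against 0.164 to 0.350 in Ad-GFP and 0.291 to 0.486 in Ad-hHIF1. The summed goblet cell markers, mostly Muc2, were at 1.55 to 2.13 CPM in Ad-hHIF2, 4.81 to 7.55 in Ad-GFP and 3.52 to 4.12 in Ad-hHIF1. The duodenal factors Pdx1 and Gata4 summed to 39.2 to 44.2 CPM in Ad-hHIF2, 26.5 to 30.2 in Ad-GFP and 30.5 to 32.4 in Ad-hHIF1. The part of these marker differences in the ribosomal protein results was not tested. Rows that are not protein-coding, the 7SL RNA rows Rn7s1 and Rn7s2 foremost, took 57.0% to 58.3% of the counts in Ad-GFP, 50.6% to 54.0% in Ad-hHIF1, and 40.8%, 54.4% and 53.2% in Ad-hHIF2 replicates 1, 3 and 4. Ad-hHIF2 replicate 1 thus stood apart, and Ad-hHIF1 replicate 3 held 16.0% of its counts in 2 satellite-like rows (Gm10800 and Gm26870), against 0.433% to 4.28% elsewhere. The effective transcript length in Ad-hHIF1 replicate 3 was shifted by -25.1 bases against the mean of the 9 libraries (median over longer transcripts). In the other libraries the shift was -1.3 to 6.5. In bulk RNA of this kind, fewer cells of a type and less RNA per cell cannot be told apart.

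Ribosomal proteins are made in near-equal amounts and assembled in the nucleolus with ribosomal RNA, and a growing cell spends much of its messenger RNA on them. Their messengers are short and typically begin with a cytosine followed by a run of pyrimidines, the 5′ terminal oligopyrimidine (TOP) motif, through which the mTOR pathway and its partner Larp1 control their translation. Myc raises transcription of both the ribosomal protein genes and the nucleolar factors that assemble ribosomes. In the intestine, the proliferating crypt cells are known for high ribosome production.

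RefSeq promoter windows (GRCm38.p6, from 250 bases before to 50 after an annotated start) were found for 67 of the 92 genes. The 30 bases from 10 before to 20 from the start are shown on the coding strand for 5 genes that were lower in Ad-hHIF2 and 3 that were not called, chosen by their fold changes, since the start holds the TOP motif, and capitals mark the pyrimidine run at or nearest the start.
Rpl34, chr3:130730318-130730347, minus strand: CTTTTCCTCTTCCggggacggtgctcagag
Rpl12, chr2:32961702-32961731, plus strand: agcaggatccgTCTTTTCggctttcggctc
Rps27l, chr9:66946076-66946105, plus strand: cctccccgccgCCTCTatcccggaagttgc
Rps10, chr17:27635225-27635254, minus strand: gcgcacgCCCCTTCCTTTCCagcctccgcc
Rps24, chr14:24490668-24490697, plus strand: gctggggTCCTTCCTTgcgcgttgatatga
Rps12, chr10:23787190-23787219, minus strand: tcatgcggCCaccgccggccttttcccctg
Rps13, chr7:116334171-116334200, minus strand: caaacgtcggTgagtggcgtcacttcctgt
Rpl24, chr16:55966265-55966294, plus strand: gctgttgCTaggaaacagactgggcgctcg
Rpl34 and Rps10 carried runs of 13 pyrimidines, Rps24 of 9, Rpl12 of 7 and Rps27l of 5. The run was 1 base at the start of Rps13, and the marked runs in Rpl24 and in Rps12, the gene with the lowest fitted fold change, were of 2 bases and lay before the start. Rps16 and Rpl7l1, also not called, had 1 base. The Rps12 window also holds an equally short run just after the start and a longer, unmarked run further on.

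A run of at least 7 pyrimidines (C or T, coding strand only) that reached the start, beginning no later than base 3 and ending no earlier than 2 bases before it, was present at an annotated start of 23 of the 57 core subunit genes with a window (40.4%), against 11.4% of all 27025 genes with a window. The 300-base windows were also searched for CCGGAAG (a core of ETS factor sites, both strands), found in 24 of the 57 (42.1%) and in 9.93% of all genes. ACGTG, the core letters of hypoxia response elements (both strands, contained in CACGTG), was found in 18 (31.6%) and in 21.8% of all genes. The E-box CACGTG, which Myc can bind, was found in 6 (10.5%) and in 8.09% of all genes, and TATAA (coding strand) in 15 (26.3%) and in 20%. Core genes with the pyrimidine run had a median log2 fold change of -0.51 in Ad-hHIF2 against Ad-GFP (20 of 23 lower at an adjusted p below 0.05), and those without it -0.40 (21 of 34 lower). A match describes the letters in these windows and is not a binding site.

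The first comparison asks what non-degradable HIF2 does to ribosomal protein messages relative to the GFP control. These messages were lower in Ad-hHIF2 organoids across both subunits: the median log2 fold change was -0.45 against -0.01 for all genes tested, on TMM-scaled counts, and it turned to 0.00147 on log2(TPM + 1), a scale on which the median of all genes rose by 0.12. Of 87 ribosomal protein genes that passed the filter on low counts, 62 (71.3%) were lower at an adjusted p below 0.05 (edgeR), where 13.6% of all tested genes were lower. None was higher, where 15.9% of all tested genes were higher. At an unadjusted p below 0.05, 73 were lower and 0 higher, where 2985 and 3190 of the 14987 tested genes were. In 64 of the 87 (73.6%), every Ad-hHIF2 library lay below every Ad-GFP library, against 22.4% of all tested genes. The shift was small per gene, since only Rpl34 was both called and at least 2-fold lower, 1 of 87 where 3.83% of all tested genes met that rule. Of the 5 rows that were not tested, Rpl39l had no count in any library, Rpl3l and Rpl10l had at most 3, Rps12l2 at most 5.84, and Rps27rt is described with its near-identical partner Rps27.

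The shift depended on the scaling of libraries, which differed in their content. With total counts in place of TMM factors, 8 of the 87 genes were lower and the median was -0.20, while the median of all genes rose to 0.24, so that the ribosomal protein genes were at -0.44 relative to all genes, as they were with TMM factors. In that fit standard errors changed as well, from 0.0770 to 0.195 for Rplp2, so the count of 8 does not rest on the scaling alone. The Rps12 row, described below, was among the 8. The share of all counts held by the ribosomal protein genes takes no TMM factor, but its total includes noncoding counts that differed between libraries. It was 5.27%, 5.28% and 4.97% in Ad-GFP replicates 1, 3 and 4, 4.63%, 4.25% and 4.03% in Ad-hHIF2, and 4.89%, 4.23% and 5.34% in Ad-hHIF1. The Ad-GFP and Ad-hHIF2 libraries did not overlap, and Ad-hHIF1 overlapped both. As a share of protein-coding counts the genes took 12.6%, 12.2% and 11.7% in Ad-GFP, 7.81%, 9.30% and 8.59% in Ad-hHIF2, and 10.4%, 8.54% and 11.6% in Ad-hHIF1, where the lowest library was replicate 3 with its satellite-like counts.

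**Figure D1:**
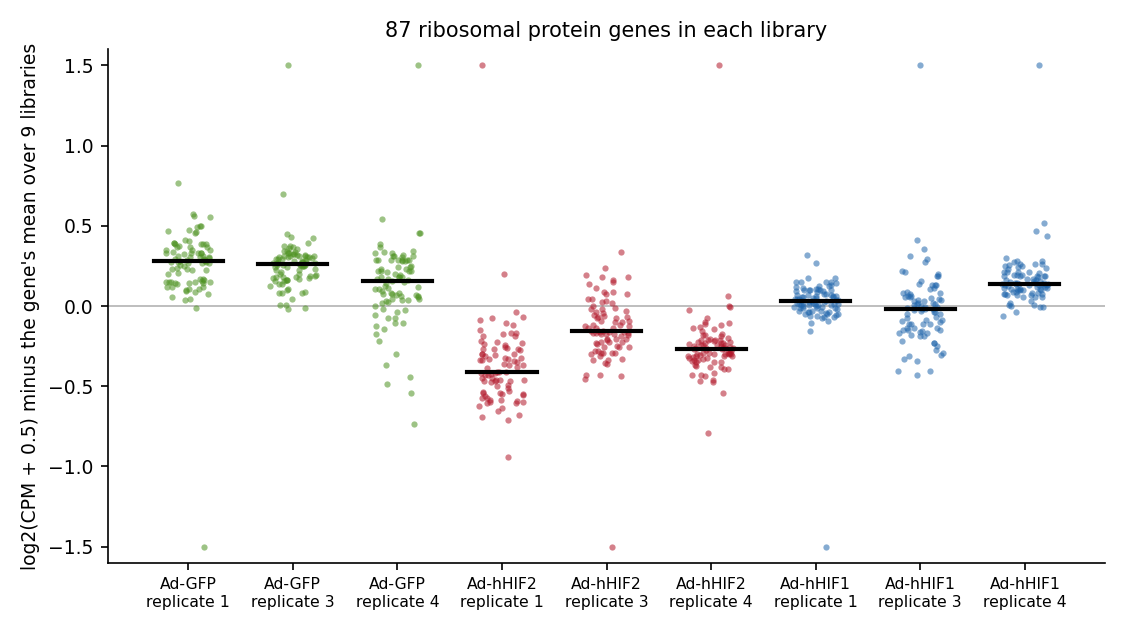
Each point is 1 of the 87 tested ribosomal protein genes in 1 library, as log2(CPM + 0.5) minus the gene's mean over the 9 libraries, and bars are medians. The medians lie at 0.16 to 0.28 in Ad-GFP, -0.41 to -0.16 in Ad-hHIF2 and -0.02 to 0.14 in Ad-hHIF1 on TMM-scaled counts; points beyond the axis, all of Rps12, are drawn at its edge, and the difference between Ad-GFP and Ad-hHIF2 was 0.00147 in the median on log2(TPM + 1).

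The plot of deviations by library shows the median of the genes below 0 in each Ad-hHIF2 library and above 0 in each Ad-GFP library, on TMM-scaled counts. The lowest median, -0.41, belonged to Ad-hHIF2 replicate 1, the library with the lowest share of noncoding counts. Without that replicate 54 genes were lower, of which 53 were among the 62, with a median of -0.35 relative to all genes. With only protein-coding rows and the rows of the set itself in the fit (6 of them processed pseudogenes), which leaves all other noncoding counts out, 70 genes were lower, all 62 among them, and the median was -0.48 relative to all genes.

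Among the 46 large subunit genes, 35 were lower in Ad-hHIF2 and none was higher, with a median of -0.41 and a range of -1.32 to 0.03. Rpl34, a large subunit protein, lies on chromosome 3 from 130726831 to 130730398. It was at 674.2, 643.4 and 497.9 CPM in Ad-GFP replicates 1, 3 and 4, at 206.0, 288.7 and 229.4 in Ad-hHIF2, and at 440.0, 394.0 and 475.5 in Ad-hHIF1. The groups did not overlap and Ad-hHIF1 lay between them. Rpl34 was 2.50-fold lower in Ad-hHIF2 than in Ad-GFP (log2 fold change -1.32, standard error 0.155, adjusted p = 0.000448), and stayed called with each of the 6 libraries left out, at -1.47 to -1.20. Its near-identical rows held 0.0488% of its family's counts.

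Rpl12 encodes a protein at the base of the ribosomal stalk. Its level fell from 147.7 ± 26.6 CPM (SD, n = 3) with Ad-GFP to 80.8 ± 3.73 with Ad-hHIF2, a change of -0.87 on the log2 scale (adjusted p = 0.00142). Its near-identical rows held 91.7% of the counts of its family, so its own level is a minor part of what its messengers may have given. The stalk, which recruits translation factors to the ribosome, is formed by Rplp0, Rplp1 and Rplp2, and all 3 were lower. Rplp1 was at 1156.0, 1166.0 and 1309.0 CPM in Ad-GFP, 590.1, 741.4 and 793.9 in Ad-hHIF2, and 1022.0, 919.6 and 1125.0 in Ad-hHIF1. Every Ad-hHIF2 library lay below the other 6, and the log2 fold change against Ad-GFP came to -0.77 (standard error 0.125, adjusted p = 0.00248). Rplp2 and Rplp0 changed less, at -0.44 (standard error 0.0770, adjusted p = 0.00356) and -0.43 (standard error 0.0954, adjusted p = 0.0108), and with the correction for transcript length Rplp2 was at -0.12 (adjusted p = 0.284). Rplp0 lost its call without Ad-hHIF2 replicate 4 (adjusted p = 0.0523).

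Rpl5 and Rpl11 bind 5S ribosomal RNA and, outside the ribosome, restrain Mdm2. Rpl11 was lower, from 378.9 ± 19.4 CPM (SD, n = 3) in Ad-GFP to 261.9 ± 46.6 in Ad-hHIF2 (log2 fold change -0.53, adjusted p = 0.0171). Rpl5 was at 108.9, 85.17 and 92.98 CPM in Ad-GFP and 54.40, 91.96 and 59.48 in Ad-hHIF2, with overlapping groups and an adjusted p of 0.0964. Near-identical rows held 95.5% of the counts of the Rpl5 family, and the sum of the family was lower in Ad-hHIF2 (-0.67, standard error 0.0850, adjusted p = 0.000633). Rpl13a, which can also leave the ribosome to silence inflammatory messengers, was lower at -0.55 (standard error 0.152, adjusted p = 0.0256). Rpl13a passed in 3 of the 6 fits that left out a library and was lost without Ad-GFP replicate 1 or 3 or Ad-hHIF2 replicate 4 (adjusted p up to 0.0756), and Rpl11 passed in 4 and was lost without Ad-GFP replicate 3 or Ad-hHIF2 replicate 4 (adjusted p up to 0.0562). Rpl10, a late-joining protein near the peptidyl transferase centre, was at -0.38 (standard error 0.123, adjusted p = 0.0458) and kept its call only without Ad-hHIF2 replicate 3 among the 6 fits that left out a library. Rpl3, which also lies near that centre, was at -0.42 (standard error 0.0898, adjusted p = 0.00866). Near-identical rows held 90.2% of the counts of the Rpl10 family, whose sum was at -0.32 (standard error 0.0772, adjusted p = 0.0144). Rpl41, which encodes a very short basic protein, fell from 1036.0 ± 65.0 CPM (SD, n = 3) to 659.1 ± 108.0, and Rpl17, at the exit of the peptide tunnel, from 2262.0 ± 67.7 to 1511.0 ± 146.0, with adjusted p of 0.00673 and 0.00313.

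Among the 31 small subunit genes, 22 were lower and none was higher, with a median of -0.51 and a range of -1.44 to -0.08. Rps10, which lies near the messenger entry and is a target of ubiquitylation when ribosomes collide, lies on chromosome 17 from 27630418 to 27636669. It was at 1367.0, 1376.0 and 1346.0 CPM in Ad-GFP, 780.5, 860.0 and 817.2 in Ad-hHIF2, and 1145.0, 1185.0 and 1277.0 in Ad-hHIF1. The 3 groups did not overlap, with Ad-hHIF2 lowest, and the log2 fold change against Ad-GFP was -0.73 (standard error 0.0814, adjusted p = 0.000336). Rps24 fell from 1461.0 ± 17.8 CPM (SD, n = 3) to 883.0 ± 97.7 (log2 fold change -0.72, adjusted p = 0.00114). Rps19 and Rps24 are both mutated in Diamond-Blackfan anaemia, and Rps19 was lower at -0.50 (standard error 0.108, adjusted p = 0.00908).

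Rpsa, which joins the small subunit head and is also known as the laminin receptor, fell from 2365.0 ± 104.0 CPM (SD, n = 3) to 1562.0 ± 125.0 (-0.59, adjusted p = 0.00230). Rps27a, whose product is made as a fusion with ubiquitin, was at -0.55 (standard error 0.169, adjusted p = 0.0388), and passed the threshold in 2 of the 6 fits that left out a library. It was lost without Ad-GFP replicate 1, 3 or 4 or without Ad-hHIF2 replicate 3. Rps18, in the subunit head, was lower at -0.60 (standard error 0.12, adjusted p = 0.00640). Rps6, the classical substrate of S6 kinase, was at 617.8, 482.2 and 401.0 CPM in Ad-GFP and 384.0, 465.3 and 323.5 in Ad-hHIF2, and Rps14, whose loss contributes to a form of myelodysplastic syndrome, was at 775.6, 653.5 and 560.5 in Ad-GFP and 348.1, 627.8 and 476.6 in Ad-hHIF2. In both genes the groups overlapped, with adjusted p of 0.169 and 0.138 and 95% intervals of the log2 fold change from -0.75 to 0.05 and from -0.92 to 0.02. Near-identical rows held 69.9% of the counts of the Rps6 family, whose sum was lower in Ad-hHIF2 (-0.52, standard error 0.0849, adjusted p = 0.00237), and 0.0222% of those of the Rps14 family.

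**Figure D2:**
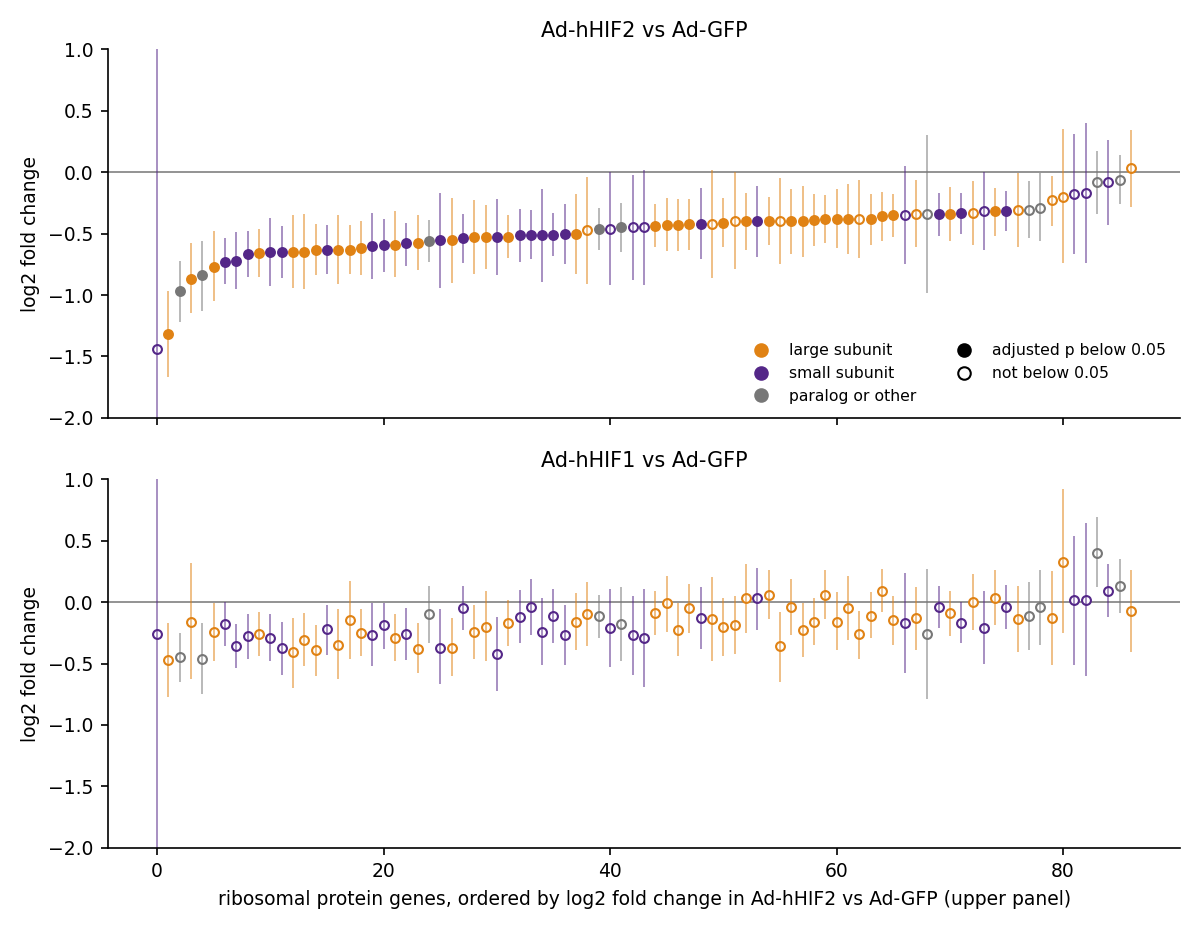
Each point is the log2 fold change of 1 of the 87 tested genes with its 95% interval (edgeR, TMM-scaled counts), in the same gene order in both panels, with colours for the subunit; filled points have an adjusted p below 0.05. Of the 87 genes, 62 are filled in the Ad-hHIF2 panel and 0 in the Ad-hHIF1 panel, where 30 have an unadjusted p below 0.05 in the lower direction; the intervals of Rps12, from -5.49 to 2.61 and from -4.74 to 4.22, run beyond the axis, and on log2(TPM + 1) the medians turn to 0.00147 and 0.05.

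Most calls did not hang on 1 library: 41 of the 62 passed in all 6 fits that left out a library. The highest log2 fold changes belonged to Rpl24 (0.03), Rpl7l1 (-0.06), Rps13 and Rps4l (both -0.08) and Rps16 (-0.17), none of which passed the test, with 95% intervals from -0.28 to 0.34 for Rpl24 and from -0.43 to 0.26 for Rps13. With total counts, log2(TPM + 1) or log2(TPM + 0.1), which moved the median of all genes to 0.24, 0.12 and 0.30, Rpl7l1, Rps13, Rps4l and Rps16 turned to values above 0. Rpl24, a protein of the intersubunit bridge, was at 223.4, 223.2 and 161.8 CPM in Ad-GFP and 228.9, 181.1 and 207.8 in Ad-hHIF2, with overlapping groups. In Rps16 the spread lay in the control, at 737.2, 697.4 and 332.9 CPM in Ad-GFP against 501.4 to 551.6 in Ad-hHIF2.

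Reads shared with copies bear on many of these genes. A search of the reference transcripts found 499 other rows (485 of them pseudogenes) that match 75 of the 92 genes at 95% identity or more over at least 200 bases, with up to 49 rows for a single gene, and 81 genes carried a count that was not exactly whole, as deposited, in at least 1 library. Over the family, 18.2% of counts lay in such copies. When each gene was summed with its near-identical rows, 72 of 87 families were lower in Ad-hHIF2, with a median of -0.48 relative to all genes. In the main fit 13.6% of all tested genes were lower, and the share in this fit is not given here. Among the 72 was Rpl24 (-0.32, standard error 0.0710, adjusted p = 0.0104), whose copies held 43.7% of the counts. Rpl27 alone was at 2.85 to 6.21 CPM in the 9 libraries, while its copies were at 340.0 to 378.0 CPM in Ad-GFP and 224.0 to 244.0 in Ad-hHIF2, and the sum was lower at -0.58 (standard error 0.0814, adjusted p = 0.00104). Rps13 with its copies was at -0.36 (adjusted p = 0.0518).

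Rps12 shows the division most plainly. Its row was at 0, 170.8 and 340.9 CPM in Ad-GFP, 77.15, 0 and 111.1 in Ad-hHIF2, and 0.1746, 336.9 and 90.86 in Ad-hHIF1. The groups overlapped and the fitted log2 fold change of -1.44 had a standard error of 1.78 (adjusted p = 0.579). With total counts as the scale, the Rps12 row was called lower at -1.14 (standard error 0.196, adjusted p = 1.79e-07). That standard error is near those of Rplp2 (0.195) and Rpl34 (0.196) in the same fit. The call is therefore not read, as it does not reflect the spread of the Rps12 row. The row Rps12l1, a processed pseudogene by annotation and identical to it over 399 bases, was even within groups, at 783.3, 762.7 and 827.4 CPM in Ad-GFP, 346.7, 449.2 and 411.6 in Ad-hHIF2, and 531.9, 589.8 and 615.9 in Ad-hHIF1, and was lower in Ad-hHIF2 at -0.97 (standard error 0.111, adjusted p = 0.000376). The reads of the 2 rows cannot be told apart, and Rps12 summed with 19 near-identical rows outside the set was at -0.65 (standard error 0.0976, adjusted p = 0.00149). Of 11 genes with exactly whole counts in every library, 8 were tested, 6 were lower, and their median was -0.44.

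**Figure D3:**
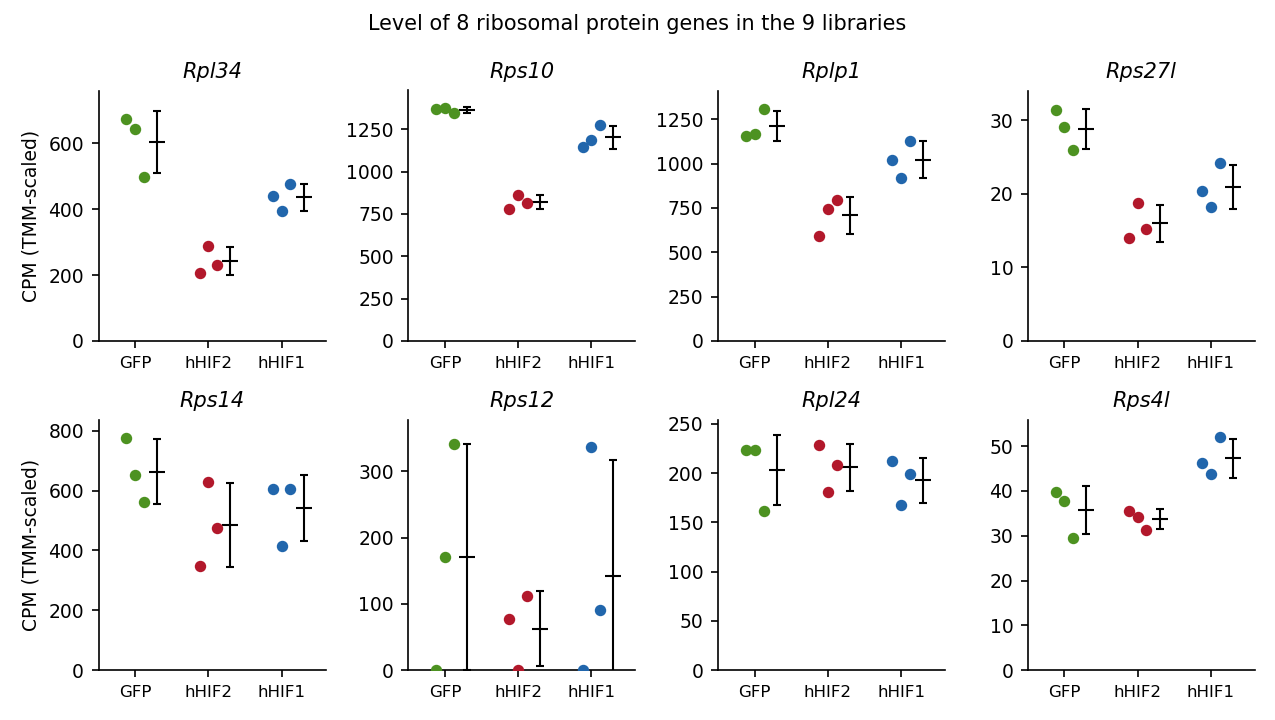
Level of 8 ribosomal protein genes in CPM on linear axes from 0, with 1 point per library and the mean ± SD (n = 3) beside each group. Ad-hHIF2 lies below the other groups without overlap in Rpl34, Rps10 and Rplp1, the groups overlap in Rps14 and Rpl24, Rps12 ranges from 0 to 340.9 within groups, and Rps4l is highest in Ad-hHIF1.

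Some ribosomal proteins have a paralog made in other tissues or at other times, and the share of each paralog was read from TPM, which corrects for length, within each library. Rpl22l1 stood at 16.5% ± 5.2 of Rpl22 in Ad-GFP (SD, n = 3), 17.4% ± 1.56 in Ad-hHIF2 and 16.8% ± 1.55 in Ad-hHIF1, with overlapping libraries. Rpl36al stood at 70.0% ± 2.31 of Rpl36a in Ad-GFP, 65.2% ± 10 in Ad-hHIF2 and 71.8% ± 7.65 in Ad-hHIF1. Rps27l, a p53 target that can replace Rps27, was at 31.34, 29.07 and 25.89 CPM in Ad-GFP, 14.02, 18.76 and 15.14 in Ad-hHIF2, and 20.42, 18.13 and 24.16 in Ad-hHIF1. It was lower in Ad-hHIF2 than in Ad-GFP at -0.84 (standard error 0.124, adjusted p = 0.00143), and its share of Rps27 was 1.58% to 1.76% in Ad-GFP and 1.18% to 1.51% in Ad-hHIF2. Rps27 itself, the highest member by TPM in Ad-GFP (571.0 ± 34.4, SD, n = 3), was at -0.53 (adjusted p = 0.0199), a call lost without Ad-GFP replicate 1 or 3 (adjusted p up to 0.0621).

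Rps4l stood at 8.79%, 8.17% and 6.45% of Rps4x in Ad-GFP, 9.63%, 9.09% and 8.81% in Ad-hHIF2, and 10.6%, 10.3% and 11.1% in Ad-hHIF1. The Ad-hHIF1 libraries lay above the other 6. Rps4x was lower in Ad-hHIF2 at -0.32 (standard error 0.0738, adjusted p = 0.0130), while Rps4l was at -0.08 (adjusted p = 0.599). Rpl7l1, a nucleolar relative of Rpl7, stood at 1.03% to 1.33% of it in Ad-GFP and 1.42% to 1.72% in Ad-hHIF2, and Rpl7 was lower at -0.36 (standard error 0.0871, adjusted p = 0.0150). The call of Rpl7 was lost without Ad-GFP replicate 1 or 3 or Ad-hHIF2 replicate 4 (adjusted p up to 0.0540), and that of Rps4x without Ad-hHIF2 replicate 4 (adjusted p = 0.0670). The testis and muscle forms were at or near 0: Rpl39l, beside Rpl39 at 44.9 to 62.1 TPM, was listed at 0 in all 9 libraries, and Rpl10l and Rpl3l had at most 3 counts in any of them.

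Ribosomal protein transcripts are short, with a median effective length of 551 bases against 2249 for the tested genes. Fold changes of other protein-coding genes in Ad-hHIF2 rose with length from 300 bases upward. Their median was -0.16 under 300 bases (42 genes) and -0.25 at 300 to 599. It was -0.13 at 600 to 999, -0.02 at 1000 to 1999, 0.08 at 2000 to 3999 and 0.15 at 4000 and over. In the same classes the ribosomal protein genes were at -0.52 (8 genes), -0.45 (38), -0.44 (28), -0.42 (11) and -0.34 (2), with no gene in the longest class. The medians of the ribosomal protein genes lay below those of other coding genes in each class they filled. Rows that are not protein-coding had medians of -0.37, -0.40, -0.39 and -0.47 in the 4 classes from 300 to 3999 bases, close to or below the ribosomal protein genes, and 15.2%, 14.2%, 13.2% and 17.0% of them were lower. At 300 to 599 bases, 63.2% of the ribosomal protein genes were lower against 22.7% of other coding genes, and at 600 to 999 bases 75% against 20.6%. After a correction for length in the fit, 35 of the 62 calls remained and the median was -0.24. Among the genes named by rule, Rplp2, Rpl7, Rps4x, Rpl10, Rps27, Rps19, Rps27a, Rpl36al and Rpl13a lost their calls, at -0.36 to -0.12 with adjusted p of 0.0575 to 0.284.

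**Figure D4:**
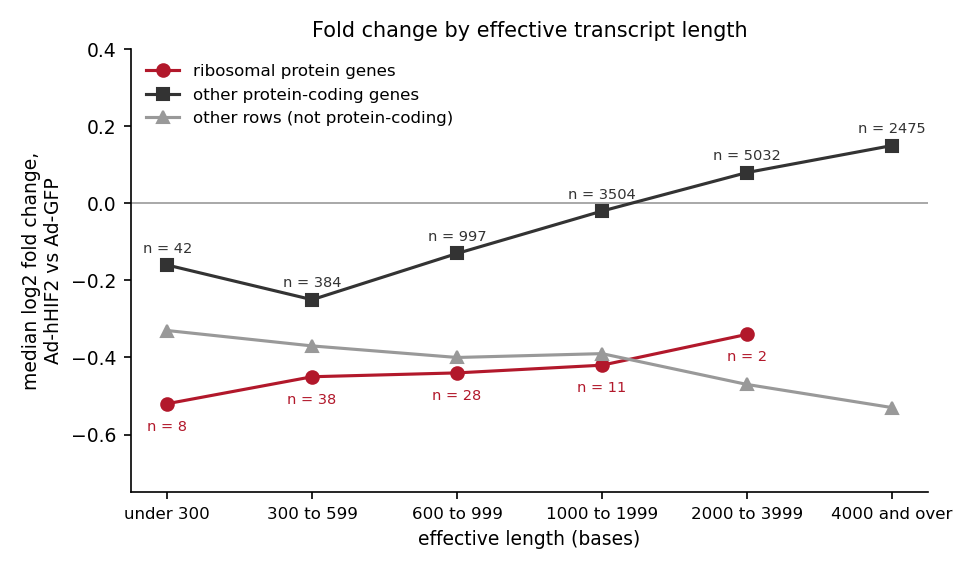
Median log2 fold change in Ad-hHIF2 against Ad-GFP (TMM-scaled counts) by class of effective length, for ribosomal protein genes, other protein-coding genes and rows that are not protein-coding, with the number of genes beside the first 2 kinds. Other coding genes go from -0.16 under 300 bases to 0.15 at 4000 and over, and ribosomal protein genes from -0.52 to -0.34; on log2(TPM + 1) the median of the ribosomal protein genes turns to 0.00147.

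The second comparison asks the same of HIF1. No ribosomal protein gene passed an adjusted p of 0.05 in Ad-hHIF1 against Ad-GFP in edgeR, and none of the 15233 tested genes did (0.0%). Among the 87 genes tested in every comparison, 30 (34.5%) were lower at an unadjusted p below 0.05, where 4.53% of all genes were, and 1 (Rps4l) was higher, where 4.06% were. DESeq2 called 21 of the genes lower and none higher, where it called 0.945% of all tested genes in either direction. In 34 of the 87 (39.1%) every Ad-hHIF1 library lay below every Ad-GFP library, against 9.06% of all genes. The median log2 fold change was -0.17 (-0.16 with Rps27rt, a low row described beside Rps27) against 0.00 for all genes, and it turned to 0.05 on log2(TPM + 1). Rps12l1 was at -0.45 (adjusted p = 0.486), Rpl34 at -0.47 (adjusted p = 0.491), Rps27l at -0.46 (adjusted p = 0.490), Rps27 at -0.42 (adjusted p = 0.501) and Rpl41 at -0.41 (adjusted p = 0.501). Rps4l was at 46.17, 43.70 and 52.11 CPM in Ad-hHIF1, above all 3 Ad-GFP libraries at 39.79, 37.83 and 29.59, a difference of 0.40 on the log2 scale (standard error 0.122, adjusted p = 0.501). The other high values were 0.33 for Rpl27, 0.13 for Rpl7l1 and 0.09 for Rps13, with adjusted p of 0.714, 0.711 and 0.776, and summed with their near-identical rows Rpl27 and Rps13 turned to -0.17 and -0.26.

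The direct comparison of the 2 factors used all 9 libraries. Epas1 was at 604.0 to 758.0 CPM in Ad-hHIF2 and at most 3.07 elsewhere. Hif1a was at 299.0 to 319.0 CPM in Ad-hHIF1 and at most 251.0 elsewhere. The identity of the factor and its dose therefore cannot be told apart. In Ad-hHIF2, 36 of the 87 ribosomal protein genes tested in every comparison (41.4%) were lower than in Ad-hHIF1, where 12.0% of all tested genes were, and none was higher, where 13.7% were. Every Ad-hHIF2 library lay below every Ad-hHIF1 library in 49 genes (56.3%), against 19.1% of all genes. The median was -0.30, and 1 gene was lower with total counts as the scale and 0 on log2(TPM + 1). With the length correction 22 genes were lower and the median was -0.18. Rpl34 (-0.85, standard error 0.148, adjusted p = 0.00210) and Rps10 (-0.55, standard error 0.0756, adjusted p = 0.000490) were again among them. Some genes had means in Ad-hHIF1 near or above those in Ad-GFP and were lower in Ad-hHIF2. Rpl7 had 998.6 ± 8.2 CPM (SD, n = 3) in Ad-GFP, 1064.0 ± 38.7 in Ad-hHIF1 and 775.1 ± 56.8 in Ad-hHIF2 (-0.46 against Ad-hHIF1, adjusted p = 0.00183), with every Ad-hHIF1 library above every Ad-GFP library (0.09, adjusted p = 0.743). Rplp0 was at 1391.0 ± 93.4, 1378.0 ± 120.0 and 1032.0 ± 80.3 (-0.42, adjusted p = 0.00951). Others had Ad-hHIF1 nearer to Ad-hHIF2, such as Rps27 at 976.3 ± 33.8 CPM in Ad-GFP, 729.0 ± 128.0 in Ad-hHIF1 and 674.3 ± 124.0 in Ad-hHIF2, with -0.11 between the factors (adjusted p = 0.645). Both factors were compared with the same Ad-GFP libraries, so these orders share that control. Rps27rt, a row identical to Rps27 over 341 bases, was at 1.396, 2.978 and 3.043 CPM in Ad-hHIF1, 1.858, 1.857 and 0 in Ad-GFP and 0.06859, 0 and 0 in Ad-hHIF2. It passed the filter on low counts only in the fits that held Ad-hHIF1, where it was highest, so its fitted values are not read and it is left out of the counts above. Reads of this row and of Rps27 cannot be told apart.

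Other genes of the translation machinery were read from lists beside the ribosomal proteins, on TMM-scaled counts only, since the other scalings were not run for these lists. Their counts in Ad-hHIF2 against Ad-GFP stand beside 13.6% lower and 15.9% higher among all tested genes. Of 25 other ribosome and TOP-messenger genes, 14 were lower and 1 higher in Ad-hHIF2 against Ad-GFP, with a median of -0.27. Npm1, a nucleolar chaperone of ribosome assembly, fell from 1049.0 ± 29.1 to 636.4 ± 30.4 CPM (SD, n = 3; -0.72, adjusted p = 0.000314). Rack1, a scaffold on the small subunit, and Fau, the precursor of Rps30, fell at -0.58 (adjusted p = 0.00426) and -0.55 (adjusted p = 0.0105). Eif3e was lower (-0.48, adjusted p = 0.00113), and Eif3f, also of the initiation factor eIF3, was the gene that rose (0.36, adjusted p = 0.0116). In Ad-hHIF1 none of the 25 passed in edgeR. At an unadjusted p below 0.05, 1 was lower and 0 higher, where 4.53% and 4.06% of all tested genes were.

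Genes of ribosome biogenesis were also lower in Ad-hHIF2 against Ad-GFP. Of 54, 40 were lower and none higher, with a median of -0.62 against -0.01 for all genes. Nhp2 and Dkc1, which make up part of the pseudouridine-guiding particle, were at -1.14 (standard error 0.0776, adjusted p = 2.27e-05) and -1.02 (standard error 0.0985, adjusted p = 0.000152). Rrp9, a protein of the U3 particle, was at -1.32 (standard error 0.0990, adjusted p = 3.66e-05), and Nop58, of the methylation-guiding particle, at -0.81 (standard error 0.0604, adjusted p = 3.54e-05). In Ad-hHIF1 none of the 54 passed in edgeR and the median was 0.01. At an unadjusted p below 0.05, 2 were higher and 2 lower, where 4.06% and 4.53% of all tested genes were. Between the factors, 44 were lower with Ad-hHIF2 than with Ad-hHIF1 (median -0.60), where 12.0% of all tested genes were. The RNA polymerase I factor Ubtf was at 0.06 (adjusted p = 0.569).

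Of 78 mitochondrial ribosomal protein genes, which build a separate ribosome inside mitochondria, 29 were lower and none higher in Ad-hHIF2 against Ad-GFP (median -0.22), with Mrpl42 at -0.73 (standard error 0.109, adjusted p = 0.00151). Of 32 tested regulators in the mTOR and Myc pathways, 10 were higher and 5 lower, the latter near the share of all tested genes (13.6%), with a median of 0.03. Myc fell from 146.2 ± 2.76 to 65.32 ± 7.46 CPM (SD, n = 3; -1.16, adjusted p = 5.32e-05) and was at 134.1 ± 2.82 in Ad-hHIF1. Mxd1, a Max partner that opposes Myc, rose from 33.88 ± 4.10 to 102.2 ± 6.21 CPM (1.59, adjusted p = 1.31e-05). Sesn2, a leucine sensor that restrains mTORC1, rose at 1.28 (adjusted p = 1.51e-05) and Deptor, an mTOR inhibitor, at 0.87 (adjusted p = 4.52e-05), whereas Ddit4, another inhibitor of mTORC1 and a known HIF target, fell at -1.30 (adjusted p = 3.64e-05). Larp1 was at -0.12 (adjusted p = 0.379). None of the 32 passed in Ad-hHIF1 in edgeR. At an unadjusted p below 0.05, 4 were higher and 1 lower, where 4.06% and 4.53% of all tested genes were. Of the 78 mitochondrial genes none passed either. At an unadjusted p below 0.05, 1 of them was higher and 5 lower, beside the same 4.06% and 4.53%.

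**Figure D5:**
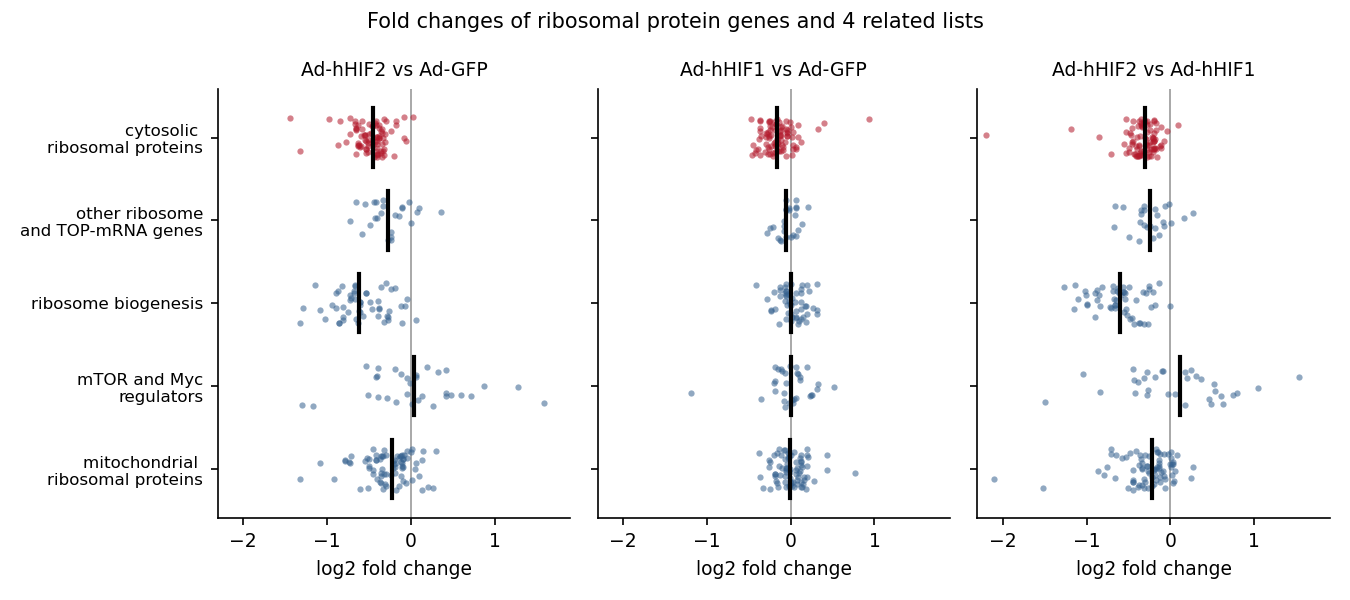
Log2 fold change of each tested gene (TMM-scaled counts) for cytosolic ribosomal proteins and 4 related lists in the 3 comparisons, with bars at the medians. In Ad-hHIF2 against Ad-GFP the medians are -0.45 for cytosolic ribosomal proteins, -0.27 for other ribosome and TOP-messenger genes, -0.62 for ribosome biogenesis, 0.03 for mTOR and Myc regulators and -0.22 for mitochondrial ribosomal proteins, and in Ad-hHIF1 they lie between -0.16 and 0.01; the fitted value of Rps27rt, which is not read, is drawn in the second panel and at the edge of the third, and on log2(TPM + 1) the first median turns to 0.00147.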

How the data were processed

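RNA from mouse duodenal organoids was sequenced in 3 groups of 3 samples, which were grouped by the adenovirus named in the labels. Reads of low quality were discarded by the authors, who estimated transcript abundance with RSEM. The RSEM version, aligner, genome build, annotation and strand setting are not given in the sources used here. The authors deposited a table per sample with expected counts, TPM and FPKM for 46517 genes. The FPKM values were not used. TPM, as deposited by the authors, served for levels compared between genes within a library and for 2 alternatives.

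Expected counts were rounded and tested with edgeR 4.0.16 (R 4.3.3, quasi-likelihood test, TMM factors, filterByExpr, Benjamini-Hochberg adjustment over all genes tested, threshold 0.05). Each HIF group was tested against Ad-GFP within its own samples, and Ad-hHIF2 against Ad-hHIF1 with all 9 in the fit. CPM are TMM-scaled. With 3 samples against 3, an exact permutation test of a single value cannot go below p = 0.10, so none was run. The code was tested on simulated data. Alternatives used DESeq2 1.42.0, limma 3.58.1, other scalings and filters, a length correction, replicate numbers as a block, and each library left out. TMM-scaled TPM, and a fit on protein-coding rows and the 92 genes alone, were added after the data were seen.

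Near-identical rows (at least 95% identity over 200 bases) were found with blastn 2.17.0 among GENCODE M21 transcripts. Promoter windows and their sequences are from RefSeq (GRCm38.p6). The genes and lists were chosen with earlier results of these data known. Genes were named by size of change (the 5 highest and 5 lowest against Ad-GFP, and any called gene changed at least 2-fold), by level (the 5 highest and 3 lowest), by paralog pair and by role, and in the other lists by smallest p (3 per comparison). Rps24 and the other list genes named outside these rules (Dkc1, Ubtf, Larp1, Deptor, Myc and Eif3f) were chosen after their values were seen. Some single genes are not reported here.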

Additional observations from a re-analysis of the deposited data

How the results depend on the processing

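In Ad-hHIF2 against Ad-GFP, 62 ribosomal protein genes were lower, and none was higher under any alternative run. The number lower was 8 with total counts, 7 with total counts without Gm10800 and Gm26870, 0 and 1 on log2(TPM + 1) and log2(TPM + 0.1), 32 on TMM-scaled log2(TPM + 1), 35 with a length correction, and 39 with the replicate block and a length correction. The median moved from -0.45 to -0.20, -0.22, 0.00147 and 0.000917 under the first 4 of these, and to -0.24 and -0.26 with the length corrections. Standard errors also changed with total counts, from 0.0770 to 0.195 for Rplp2, so that count does not rest on the scaling alone. With a library left out the count was 44 to 68 and the median -0.55 to -0.36. DESeq2 called 73 lower, where it called 30.9% of all tested genes in either direction, a share that includes higher genes. In the main fit 13.6% of all tested genes were lower, and the shares under the other alternatives are not given here. The count was 68 with limma-voom, 63 with median-ratio size factors, 79 with no filter, and 70 with protein-coding rows and the rows of the set.

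In Ad-hHIF1 against Ad-GFP, no filter gave 1 higher and 6 lower, and DESeq2 21 lower. The median of -0.16 over 88 genes moved to -0.08 with total counts, -0.02 with total counts without Gm10800 and Gm26870, and -0.08 with a length correction, without and with the replicate block, and turned to 0.05 and 0.06 on log2(TPM + 1) and log2(TPM + 0.1). In Ad-hHIF2 against Ad-hHIF1, the 37 lower genes (36 without Rps27rt) became 2 with total counts, 7 without Gm10800 and Gm26870, 57 with DESeq2, 1 and 1 on the TPM scales, 23 with a length correction, and 17 with the replicate block and a length correction. Leaving out Rps27rt makes these 1, 6, 56, 0 and 0, 22, and 16. DESeq2 called 28.9% of all tested genes in either direction in this comparison. The median of -0.30 became -0.14 with total counts, -0.08 on both TPM scales and -0.18 with both length corrections. With a library left out the count was 25 to 48 (24 to 47 without Rps27rt) and the median -0.42 to -0.23. The cause was not tested in these cases.

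Single genes reversed as follows in Ad-hHIF2 against Ad-GFP. With total counts, and without Gm10800 and Gm26870, Rps16 turned to 0.08 and 0.06, Rps4l to 0.18 and 0.16, Rps13 to 0.16 and 0.14, and Rpl7l1 to 0.20 and 0.17. On the TPM scales (pseudocount 1, then 0.1) these were 0.33 and 0.33, 0.33 and 0.37, 0.33 and 0.34, and 0.30 and 0.38. Both TPM scales gave 0.04 for Rpl22 and Rpl10, 0.03 for Rpl39 and Rpl3, 0.13 for Rps4x, 0.10 for Rpl36a and Rps6, 0.05 for Rpl7, 0.02 for Rplp0 and 0.01 for Rplp2, and 0.16 and 0.17 for Rpl22l1. Length correction, without and with the replicate block, gave 0.12 and 0.19 for Rps16, 0.09 and 0.09 for Rps4l, and 0.19 and 0.18 for Rps13. Rpl24 turned to -0.32 with near-identical rows summed, -0.05 on TMM-scaled TPM and -0.01 with protein-coding rows and the rows of the set. In Ad-hHIF1, sums with -ps rows and with near-identical rows gave -0.26 and -0.26 for Rps13, and -0.12 and -0.17 for Rpl27.

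Leaving out a library, Rps16 ranged from -0.45 to 0.03 and Rps4l from -0.19 to 0.00221 (highest without Ad-GFP replicate 1), Rps13 from -0.28 to 0.05 (highest without Ad-hHIF2 replicate 4), and Rpl24 from -0.11 (without Ad-GFP replicate 4) and -0.03 (without Ad-hHIF2 replicate 1) to 0.11. Calls were lost without Ad-GFP replicate 1 for Rps27, Rpl10, Rpl7, Rps27a and Rpl13a, without replicate 3 for these and Rpl11, without replicate 4 for Rpl10 and Rps27a, without Ad-hHIF2 replicate 1 for Rpl10, without replicate 3 for Rps27a, and without replicate 4 for Rpl10, Rps4x, Rpl7, Rplp0, Rpl11 and Rpl13a.

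The replicate numbers were not taken to pair the samples, since the labels do not say that they mark a shared source and the correlations were not above 0.1 in every pair. Correlations of same-numbered deviations across genes were 0.0752, 0.0703 and 0.134 for Ad-hHIF2 with Ad-GFP, 0.0969, 0.0192 and -0.0909 for Ad-hHIF1 with Ad-GFP, and -0.0670, -0.0692 and -0.194 for Ad-hHIF2 with Ad-hHIF1. In the first of these every sample correlated best with its own number, a hint from the data and not from the design. A replicate block gave 67 lower genes in Ad-hHIF2 against Ad-GFP (median -0.45), 0 in Ad-hHIF1 against Ad-GFP (median -0.16), and 35 in Ad-hHIF2 against Ad-hHIF1 (median -0.30). Counts were too low to test 5 of the 92 genes in Ad-hHIF2 against Ad-GFP.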

Other observations

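Of 499 rows near-identical to ribosomal protein genes, 55 passed the filter in Ad-hHIF2 against Ad-GFP. Of these 55, 20 were lower and none higher in edgeR, where 13.6% of all tested genes were lower. At an unadjusted p below 0.05, 25 were lower and 0 higher, where 2985 and 3190 of the 14987 tested genes were. The 55 rows had a median log2 fold change of -0.49 and a range of -3.56 to 0.96. Since RSEM may have assigned them reads of the parent genes, they are no separate measurement. Several promoter letters went with similar differences in Ad-hHIF2 against Ad-GFP. Of 24 core genes with CCGGAAG in the window 20 were lower, with a median of -0.53, against 21 of 33 without it, with a median of -0.40. With ACGTG 14 of 18 were lower (median -0.49), against 27 of 39 without it (-0.43), and with TATAA 10 of 15 (-0.40), against 31 of 42 (-0.47). As for the E-box, the 6 core genes with a CACGTG in the window were all lower, with a median of -0.53, against 35 of 51 without it, with a median of -0.43.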
